A study of Mus musculus with 7 samples.

Results

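The insulin-like growth factor (IGF) system is described here through 10 genes chosen by symbol: the ligand gene Igf1, the receptor gene Igf1r, the receptor substrates Irs1 and Irs2, and the binding proteins Igfbp2, Igfbp3, Igfbp4, Igfbp5, Igfbp6 and Igfbp7. All 10 were found among the 16167 genes of the deposited table, and all 10 passed the filter on low values, which kept 13466 genes. RNA-seq was made from whole kidneys of mouse embryos at E15.5. The 4 mutant libraries came from Six2-Cre; Irx3/5(loxP/loxP) embryos, in which both copies of the Iroquois homeobox genes Irx3 and Irx5 are floxed and Six2-Cre, active in nephron progenitors and so in the cells derived from them, removes the floxed parts. The 3 control libraries came from Irx3/5(loxP/+) littermates with a floxed copy on 1 chromosome and no Cre named in their labels (1 label field calls them WT), so deletion and Cre transgene cannot be told apart. Stroma, vessels and the ureteric tree are not formed from Six2-positive cells, and all of them are in the tissue sequenced. The design asks how loss of Irx3 and Irx5 in the nephron lineage alters kidney RNA, and the comparison below gives the IGF genes in it.

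IGF1 and IGF2 are secreted growth factors that act through the receptor tyrosine kinase IGF1R. The active receptor phosphorylates the docking proteins IRS1 and IRS2, which recruit phosphoinositide 3-kinase and so switch on AKT and TOR signalling for growth and survival. IGF binding proteins hold the ligands outside the cell, and can withhold them from the receptor or deliver them to it, depending on the protein, its proteases and the matrix. IGFBP7 binds IGFs only weakly and is also studied as a matrix protein of vessels.

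The libraries held 40511920 to 69028943 reads in listed genes, and the members had 654 to 54451 reads in a library. Irx3, the targeted gene, fell from 13.9 ± 1.07 FPKM (SD, n = 3) to 5.73 ± 1.28 FPKM (SD, n = 4; limma adjusted p = 0.0145), a call lost without control replicate 1 or 2 (adjusted p = 0.0860 and 0.105). Irx5 stood at 1.499 ± 0.12 and 1.53 ± 0.60 FPKM (exact permutation p = 0.943), with 131 to 345 reads, and which part of it is removed is not stated. The kidney markers Pax2, Pax8, Six2, Wt1, Foxd1 and Ret were found in every library. Their summed level was 207 to 209.5 FPKM among controls, against 157 to 181 FPKM among mutants. Not all of these markers were lower. Ret was at 7.88 to 8.71 FPKM among controls, against 9.51 to 14.6 FPKM among mutants, and the groups overlapped for Pax8 and Foxd1. Mutant replicate 1 stood apart in a way related to gene length. Its log2 values in the longest 10% of genes, taken against the mean of all libraries, stood apart from those in the shortest 10% by -0.435, whereas in the other libraries this difference ran from -0.108 to 0.206. Mutant replicate 3 had the highest ratio of embryonic to adult beta-globin RNA, 10.5% against 1.34% to 3.45% in the others. The members' values in mutant replicate 1 are set beside gene length below. Fewer cells of a type and less RNA per cell cannot be told apart in these whole-organ samples.

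No member passed the threshold in the comparison of 4 mutants with 3 controls. Of the 10 members, 0 were called by limma at an adjusted p under 0.05, against 1.53% of all 13466 genes tested. Limma-voom on recovered read counts also called 0 members (1.62% of all genes). At an unadjusted p under 0.05 there were 3 members, namely Igfbp7 and Igfbp2 with lower and Igfbp6 with higher values in mutants, beside 13.7% of all genes. The groups overlapped for all 10 members, while they did not for 14.5% of all genes tested. The members' median log2 difference was -0.0098, and that of all genes was -0.0020. Igfbp7 alone passed in the authors' deposited table, lower in mutants (3.74% of its 16153 genes with a p-value were called lower, and 5.49% were called in either direction).

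**Figure D1:**
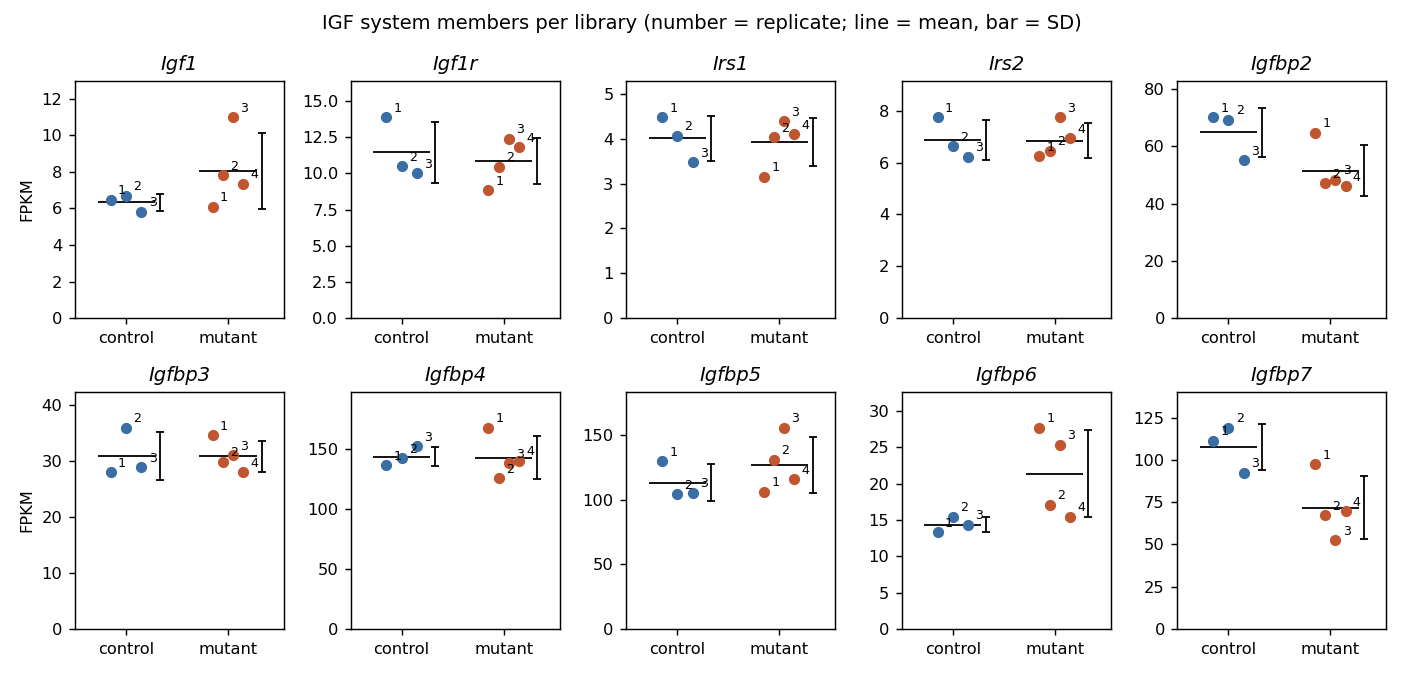
FPKM of the 10 members in 3 control and 4 mutant libraries, 1 panel a gene on a linear axis from 0, with the replicate number beside each point, the mean as a line and the SD as a bar. Igfbp7 and Igfbp2 are lowest in mutant replicates 2, 3 and 4, and Igfbp6 is highest in mutant replicates 1 and 3. Igf1r, Irs1 and Irs2 show overlapping groups.

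Igfbp7 showed the largest difference among the members. It was at 112, 119 and 92.5 FPKM across control replicates 1 to 3, against 97.4, 67.3, 52.7 and 69.8 FPKM across mutant replicates 1 to 4. Mutant replicates 2 to 4 lay below every control, and mutant replicate 1 lay above control replicate 3. The means were 107.7 ± 13.6 and 71.8 ± 18.7 FPKM (SD, n = 3 and n = 4), with a log2 difference of -0.60 (SE 0.19, 95% interval -1.04 to -0.17) and a limma adjusted p of 0.184. In the authors' deposited table the log2 fold change was -0.58 (SE 0.18) with an adjusted p of 0.0289. The call therefore differs between the 2 tests, while the size of the difference is nearly the same. Without mutant replicate 1 the log2 difference was -0.76 (SE 0.13) and passed (limma adjusted p = 0.0305), in a fit that called 3.63% of 13386 genes. With limma's array weights, which gave mutant replicate 1 the lowest weight of the 7 libraries, Igfbp7 also passed at -0.72 (adjusted p = 0.00789), as did 9.67% of all genes. Without mutant replicate 3, the library with the lowest Igfbp7, the log2 difference was -0.47 (adjusted p = 0.227). An annotation of another genome build places Polr2b across the opposite strand of Igfbp7, and whether counting used strand is not given in the sources used here, so reads shared by this pair are uncertain.

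Igfbp7 is known from vessels, and the sum of the endothelial markers lay in the opposite direction, though not every marker did. The summed FPKM of Pecam1, Cdh5, Kdr, Tek, Emcn, Plvap and Flt1 was 165 to 174 in controls and 178 to 184 in mutants. By log2 difference 6 of the 7 were above 0 and 1, Plvap, was below. Plvap was at 44.6, 49.7 and 44.0 FPKM across the controls, against 50.5, 37.8, 39.4 and 40.3 FPKM across mutant replicates 1 to 4. Its mutant replicates 2 to 4 lay below every control, as for Igfbp7. By limma 0 of the 7 passed (1 higher at an unadjusted p under 0.05, 0 by limma-voom and 0 in the authors' deposited table), and 0 of the 7 were at 0 FPKM in any library. Proximal tubule markers lay in the same direction as Igfbp7. The summed FPKM of Slc34a1, Lrp2, Cubn, Slc3a1, Slc5a2, Slc22a6 and Hnf4a was 89.4, 87.7 and 73.9 across control replicates 1 to 3, against 53.5, 46.8, 25.4 and 43.2 across mutant replicates 1 to 4, and 2 of the 6 tested members fell by limma while 0 rose. Mutant replicate 1 was highest and mutant replicate 3 lowest of the mutants in both readouts. Other lists shared that order. The 5 podocyte markers summed to 120 to 133 FPKM among controls and to 88.7, 78.8, 71.3 and 87.4 FPKM in mutant replicates 1 to 4. By limma 3 of these 5 fell, and 5 were lower in the authors' deposited table. The 6 nephron progenitor markers summed to 147 to 165 FPKM among controls and 116 to 136 FPKM among mutants, but with mutant replicate 2 lowest. They did not all fall, as by limma 2 of the 6 passed as lower and 1 as higher. Crym was at 36.7 to 40.2 FPKM among controls, against 50.4 to 53.0 FPKM among mutants. The 5 loop and distal tubule markers summed to 26.9 to 33.9 FPKM among controls and to 17.2, 11.5, 5.19 and 10.83 FPKM in mutant replicates 1 to 4, and 2 of their 4 tested members fell by limma. The 4 markers of smooth muscle and the renin lineage summed to 124 to 183 FPKM among controls and to 134, 118, 82.6 and 90.5 FPKM in the mutants, with 0 of 4 passing by limma (1 lower at an unadjusted p under 0.05, 0 by limma-voom and 1 lower in the authors' deposited table). Across the 7 libraries the genes with a log2 pattern most like Igfbp7 were Ass1, which encodes an enzyme of arginine synthesis (Pearson r = 0.991), Cideb, a lipid droplet protein gene (0.991), and the kininogen gene Kng2 (0.988). These coefficients describe 7 libraries that share a group difference and are the highest of all genes tested. What part these cell types play in the Igfbp7 value was not tested.

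**Figure D2:**
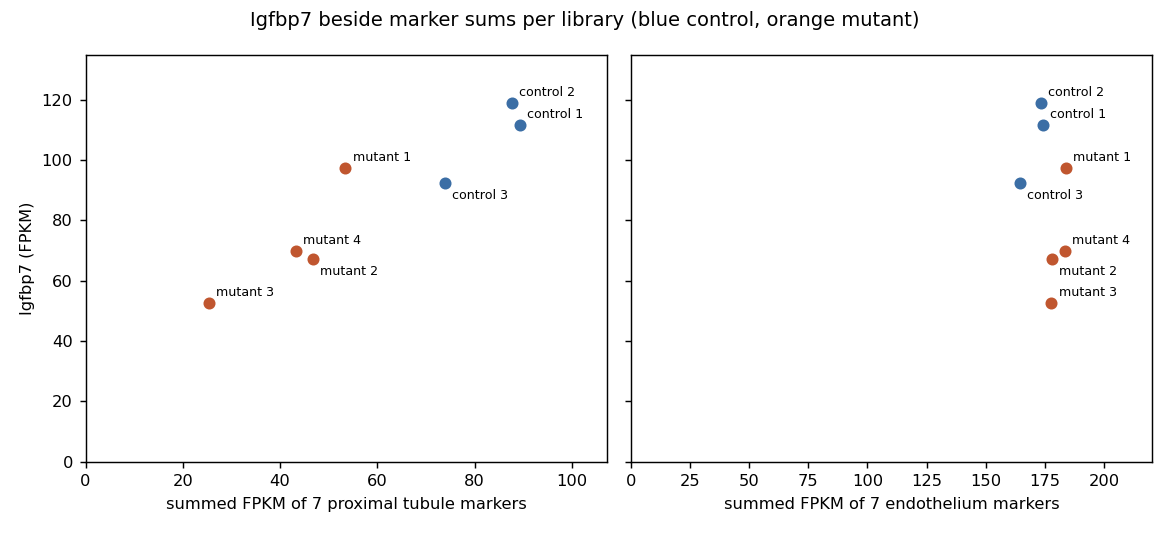
Igfbp7 FPKM on the vertical axis against the summed FPKM of 7 proximal tubule markers (left) and 7 endothelial markers (right), 1 point a library. On the left mutant replicate 3 is lowest on both axes at 25.4 and 52.7 FPKM, whereas on the right all 7 libraries lie within 165 to 184 summed FPKM.

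Igfbp2, whose product binds both IGFs and carries a motif for integrins, followed Igfbp7 at a smaller size. It stood at 70.2, 69.3 and 55.2 FPKM across the controls, against 64.7, 47.1, 48.4 and 46.1 FPKM across mutant replicates 1 to 4. Mutant replicates 2, 3 and 4 lay close together and below every control, and mutant replicate 1 lay inside the control range. The log2 difference was -0.33 (SE 0.13, 95% interval -0.64 to -0.03; limma adjusted p = 0.309). Without mutant replicate 1 it was -0.44 (SE 0.10), just short of the threshold (adjusted p = 0.0502), and with array weights it was -0.49 and passed (adjusted p = 0.00907). Igfbp2 was not called in the authors' deposited table (adjusted p = 0.214).

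The upstream sequences of these 2 genes are shown because they are the members whose values were lower together in the same 3 mutants. Each is the 250 bases before an annotated start, on the gene's strand, from RefSeq on GRCm38.p6, which is not the build of the deposited table. Capitals mark GGGCGG or its reverse complement, the GC box read by Sp1-type factors. The Igfbp7 window lies at chr5:77408046-77408295 on the minus strand. RefSeq's table gives 2 starts for Igfbp2, both on the plus strand. Their windows lie at chr1:72824230-72824479 (upstream) and chr1:72825137-72825386 (downstream). The last 30 transcribed bases of the table's entry were found in 0 of 3 GENCODE transcripts of Igfbp2 for the upstream start and in 1 of 3 for the downstream start.
Igfbp7: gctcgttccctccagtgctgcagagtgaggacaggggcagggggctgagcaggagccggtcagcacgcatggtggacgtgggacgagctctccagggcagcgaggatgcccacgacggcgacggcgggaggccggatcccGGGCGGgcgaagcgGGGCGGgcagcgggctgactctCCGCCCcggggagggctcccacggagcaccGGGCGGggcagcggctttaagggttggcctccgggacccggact
Igfbp2 upstream start: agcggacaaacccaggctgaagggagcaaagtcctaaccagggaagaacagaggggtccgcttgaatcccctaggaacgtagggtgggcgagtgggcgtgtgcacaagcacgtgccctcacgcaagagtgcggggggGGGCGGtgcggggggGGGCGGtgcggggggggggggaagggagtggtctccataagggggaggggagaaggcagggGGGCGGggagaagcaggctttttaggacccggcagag
Igfbp2 downstream start: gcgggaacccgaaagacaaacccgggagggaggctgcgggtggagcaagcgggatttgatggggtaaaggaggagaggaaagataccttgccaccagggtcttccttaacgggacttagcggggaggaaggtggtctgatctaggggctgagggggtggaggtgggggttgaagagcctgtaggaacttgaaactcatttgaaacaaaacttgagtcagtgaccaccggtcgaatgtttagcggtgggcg
The Igfbp7 window held 4 matches, the upstream Igfbp2 window 3 and the downstream Igfbp2 window 0. At least 1 match was held by 32.7% of the 32851 mouse promoter windows of 250 bases. G and C made up 74.0% of the Igfbp7 window and 67.2% and 56.4% of the upstream and downstream Igfbp2 windows. The median over all windows was 52.4%, so the 32.7% comes from windows with fewer of these letters. Both strands were searched, and matches were found in 5 of the 11 windows of the 10 members. The letters ACANNTGT, the core bound by Iroquois proteins, occurred in 0 of the 11 windows and in 6.31% of all windows. The HNF4A-type letters CAAAGTCCA occurred in 0 of the 11 and in 0.384% of all windows. TATAAA was found in 2 of the 11 (12.4% of all), in Igfbp4 and Igfbp6, and CCAAT in 3 of the 11 (33.8% of all). These matches describe letters in the windows and are not evidence of binding.

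Igfbp6, whose product prefers IGF2 over IGF1, was the member with the largest difference toward higher values in mutants. It was at 13.3, 15.4 and 14.3 FPKM across the controls, against 27.7, 17.1, 25.3 and 15.4 FPKM across mutant replicates 1 to 4. The controls lay close together (SD 1.06), whereas the mutants spread widely (21.4 ± 6.03 FPKM). Mutant replicates 1 and 3 were far above the controls, and mutant replicate 4 was level with the highest control. The log2 difference was 0.51 (SE 0.20, 95% interval 0.05 to 0.96; limma adjusted p = 0.297). In the authors' deposited table the log2 fold change was 0.57 (adjusted p = 0.0718). Without mutant replicate 1 it came to 0.37 (adjusted p = 0.312), and without mutant replicate 4 to 0.64 (adjusted p = 0.171). With array weights, the setting under which Igfbp7 and Igfbp2 passed, Igfbp6 came to 0.21 (adjusted p = 0.433). Genes with the pattern most like Igfbp6 over the 7 libraries were Parvb, an integrin adaptor gene (Pearson r = 0.972), Pdzd4 (0.970) and Pkdcc, a secreted protein kinase gene (0.963). Pkdcc was at 93.1 to 104 FPKM among controls, against 118 to 157 FPKM among mutants, whereas Parvb and Pdzd4 differed by only 0.04 and 0.07 on the log2 scale between groups.

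Igf1, the ligand member, was higher in 3 of 4 mutants than in any control. It stood at 6.47, 6.70 and 5.82 FPKM across the controls, against 6.10, 7.83, 10.98 and 7.34 FPKM across mutant replicates 1 to 4. Mutant replicate 3 was highest and mutant replicate 1 lay within the control range. The log2 difference was 0.28 (SE 0.16, 95% interval -0.08 to 0.64; limma adjusted p = 0.513). It was 0.14 without mutant replicate 3 and 0.39 without mutant replicate 1 (adjusted p = 0.609 and 0.180). Stroma and macrophages are known sources of Igf1 in many tissues. The 8 stromal markers summed to 464, 345 and 291 FPKM in the controls and to 457, 381, 575 and 412 FPKM across the mutants, with mutant replicate 3 highest as for Igf1. The 6 macrophage markers summed to 22.4 to 22.8 FPKM among controls, against 25.4 to 29.5 in mutants, with mutant replicate 1 highest. By limma 0 of the 8 and 0 of the 6 passed (3 and 4 at an unadjusted p under 0.05, all higher; 0 and 0 by limma-voom; 2 and 0 higher in the authors' deposited table). Their part in the Igf1 value was not tested.

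Igfbp5 and Igfbp2 are neighbours on chromosome 1, and their differences had opposite signs. Igfbp5 encodes a matrix-binding IGFBP and was at 129.7, 104 and 106 FPKM across the controls, against 106, 131, 156 and 116 FPKM across mutant replicates 1 to 4. Mutant replicates 2 and 3 lay above every control, and mutant replicate 1 near the lowest. The log2 difference was 0.16 (SE 0.14, 95% interval -0.15 to 0.47; limma adjusted p = 0.717). It was 0.057 without mutant replicate 3 and 0.10 without control replicate 2, but 0.26 without control replicate 1 and 0.24 without mutant replicate 1. Mutant replicate 3, the library with the highest embryonic globin ratio, was thus highest in Igfbp5, Igf1 and the stromal sum and lowest in Igfbp7. With that ratio as a covariate the log2 differences were 0.11 for Igfbp5, 0.20 for Igf1 and -0.49 for Igfbp7 (limma adjusted p = 0.784, 0.544 and 0.0917).

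Igfbp4 and Igfbp3 showed no detectable difference. Igfbp4, whose product inhibits IGF action until it is cleaved, was at 137, 142 and 152 FPKM across the controls, against 167, 125, 138 and 140.0 FPKM across the mutants. The mutants spread over both sides of the control range, and the log2 difference was -0.01 (SE 0.10, 95% interval -0.24 to 0.21). Igfbp3, the main carrier of IGFs in blood, was at 28.02, 35.9 and 28.9 FPKM across the controls, against 34.6, 29.9, 31.0 and 27.99 FPKM across the mutants. Its log2 difference was 0.00 (SE 0.10, 95% interval -0.23 to 0.23), so a difference of either sign within that interval is not excluded. Igfbp1, which adjoins Igfbp3 on chromosome 11 and is not a member, was at only 1.61 to 2.20 FPKM among controls, against 1.40 to 2.35 FPKM among mutants.

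The receptor and its substrates had overlapping ranges between groups, though mutant replicate 1 lay below every control for Igf1r and Irs1. Igf1r was at 13.9, 10.5 and 10.01 FPKM across the controls, against 8.82, 10.4, 12.4 and 11.8 FPKM across the mutants, a log2 difference of -0.07 (SE 0.13, 95% interval -0.37 to 0.24; limma adjusted p = 0.916). Irs1 was at 4.48, 4.06 and 3.48 FPKM across the controls, against 3.15, 4.03, 4.39 and 4.09 FPKM across the mutants (-0.03, SE 0.11, 95% interval -0.28 to 0.22). Irs2 was at 7.75, 6.64 and 6.23 FPKM across the controls, against 6.24, 6.45, 7.74 and 6.93 FPKM across the mutants (-0.01, SE 0.09, 95% interval -0.22 to 0.21). Control replicate 1 was the highest library for all 3 genes, and mutant replicate 1 was the lowest for Igf1r and Irs1. Within a library the FPKM ratio of Igf1r to the insulin receptor gene Insr was 2.17 to 2.33 in controls and 2.29 to 2.50 in mutants. That of the IGF2 receptor gene Igf2r to Igf1r was 1.21 to 1.40 in controls and 1.14 to 1.53 in mutants. The ratio of Irs2 to Irs1 was 1.64 to 1.79 in controls and 1.60 to 1.98 in mutants. Where a difference was sought after removing each library's trend on gene length, the log2 differences were -0.03 (SE 0.07) for Igf1r, 0.00 (SE 0.07) for Irs1 and 0.01 (SE 0.08) for Irs2, so the signs of Irs1 and Irs2 flipped around 0.

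**Figure D3:**
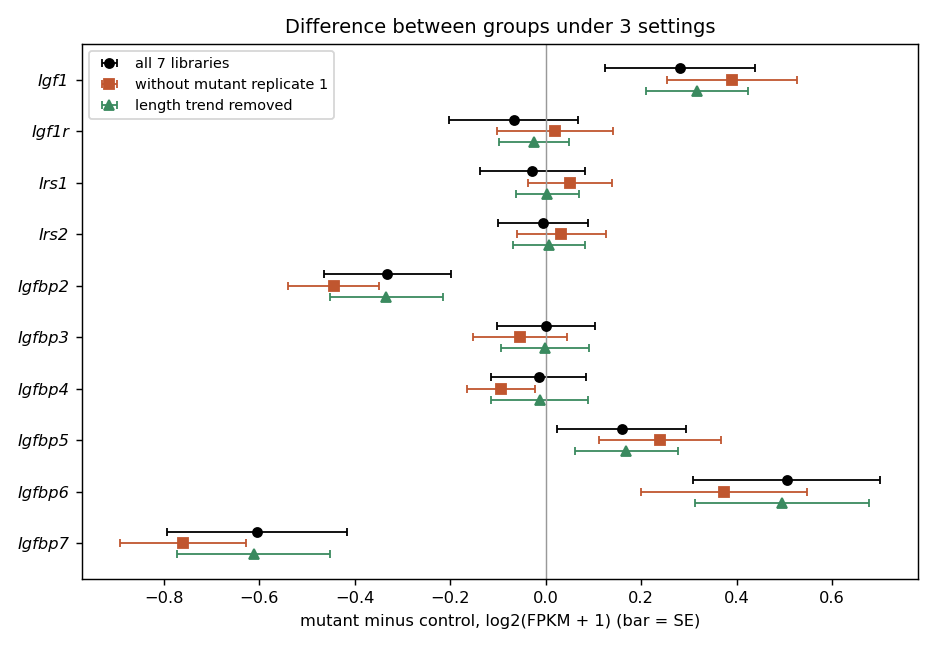
Log2(FPKM + 1) differences of mutants from controls for the 10 members, with the SE as a bar, for all 7 libraries, without mutant replicate 1, and after removal of each library's length trend. Igfbp7 and Igfbp2 lie below 0 and Igfbp6, Igf1 and Igfbp5 above 0 under all 3 settings, and the other 5 members lie within 0.1 of 0.

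Mutant replicate 1 differed from the other mutants in opposite directions for shorter and longer members. The deposited FPKM and mean counts give each gene's length relative to the median tested gene. Igfbp6, Igfbp7 and Igfbp2 are short by this measure (0.323, 0.351 and 0.424 of the median), and Igf1r, Igf1 and Irs1 are long (3.31, 2.87 and 2.65 times the median). Mutant replicate 1 lay above the mean of mutant replicates 2 to 4 by 0.62, 0.53 and 0.45 on the log2 scale for Igfbp7, Igfbp6 and Igfbp2. It lay above them by 0.32 and 0.22 for Igfbp4 and Igfbp3, which are of medium length. For Igf1, Igf1r, Igfbp5, Irs1 and Irs2, the 5 longest members, it lay below them, with differences of -0.43, -0.35, -0.32, -0.32 and -0.15. The 5 shorter members were thus all higher and the 5 longer all lower in this library. Over all genes tested, its median log2 deviation from the mean of all libraries was 0.179 in the shortest 10% and -0.256 in the longest 10%. What part the length pattern plays in the members' values was not tested. After removal of the length trend 0 members passed (3.13% of all genes did), Igfbp7 stood at -0.61 (SE 0.16; limma adjusted p = 0.0979) and Igf1 at 0.32 (SE 0.11; adjusted p = 0.165). The 2 largest differences, those of Igfbp7 and Igfbp6, were -0.61 and 0.49 with the trend removed, against -0.60 and 0.51 before. The difference of the longest from the shortest 10% ran from -0.108 to 0.206 in controls and from -0.435 to 0.18 in mutants. It lay on both sides of 0 within each group, so its removal says little about a difference between groups.

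**Figure D4:**
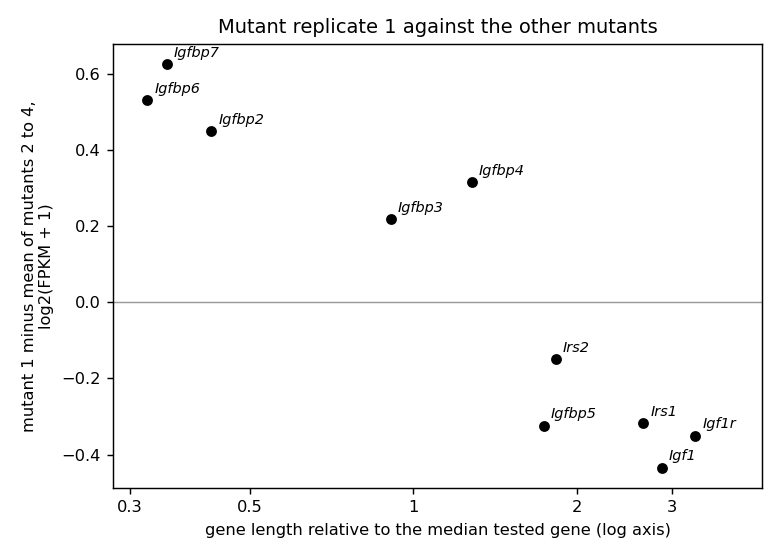
Log2(FPKM + 1) value of mutant replicate 1 less the mean of the other 3 mutants (vertical) against gene length relative to the median tested gene (horizontal, log axis) for the 10 members. The 5 shorter members lie above 0, from 0.22 to 0.62, and the 5 longer members lie below 0, from -0.43 to -0.15.

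FPKM are per length, so the levels of the members can be set in order. By the control means the order was Igfbp4 (143.5 FPKM), Igfbp5 (113), Igfbp7 (107.7), Igfbp2 (64.9), Igfbp3 (31.0), Igfbp6 (14.4), Igf1r (11.5), Irs2 (6.87), Igf1 (6.33) and Irs1 (4.01). Igfbp4 lay above 97.7% of all genes tested by control mean and Irs1 above 25.1%. Among neighbours in this order the control ranges overlapped for Igfbp5 and Igfbp7, for Igfbp6 and Igf1r, and for Irs2 and Igf1, and these neighbours are not separated by their spread. In the mutants Igfbp5 was above Igfbp7 in 4 of 4 libraries and their ranges did not overlap, against 2 of 3 controls. Igf1 was above Irs2 in 3 of 4 mutants and in 1 of 3 controls. Igf2, the main IGF of the embryo, was at 48.1 ± 7.43 FPKM among controls, against 48.5 ± 9.90 FPKM among mutants (SD, n = 3 and n = 4).

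The 6 binding protein genes summed to 449 to 489 FPKM among controls, against 415 to 498 FPKM among mutants, with a mean of 475 ± 22.6 and 446 ± 38.7 (SD, n = 3 and n = 4). Igfbp7 made up 22.8%, 24.5% and 20.6% of this sum across control replicates 1 to 3, against 19.6%, 16.1%, 11.7% and 16.8% across mutant replicates 1 to 4, so every mutant lay below every control. Igfbp6 made up 2.72% to 3.19% in controls and 3.72% to 5.62% in mutants, so every mutant lay above every control. In FPKM itself the groups overlapped for both genes, while they did not for 14.5% of all genes tested. A matching rate for shares of a sum was not computed. Igfbp5 made up 21.5% to 26.5% in controls and 21.3% to 34.5% in mutants. Igfbp2 made up 12.3% to 14.3% and 10.7% to 13.0%, Igfbp4 27.9% to 33.9% and 30.002% to 33.7%, and Igfbp3 5.73% to 7.40% and 6.74% to 7.16%, all with overlapping ranges. These shares add to 100% within a library, so a lower share of 1 gene raises those of the others, and they were not tested.

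**Figure D5:**
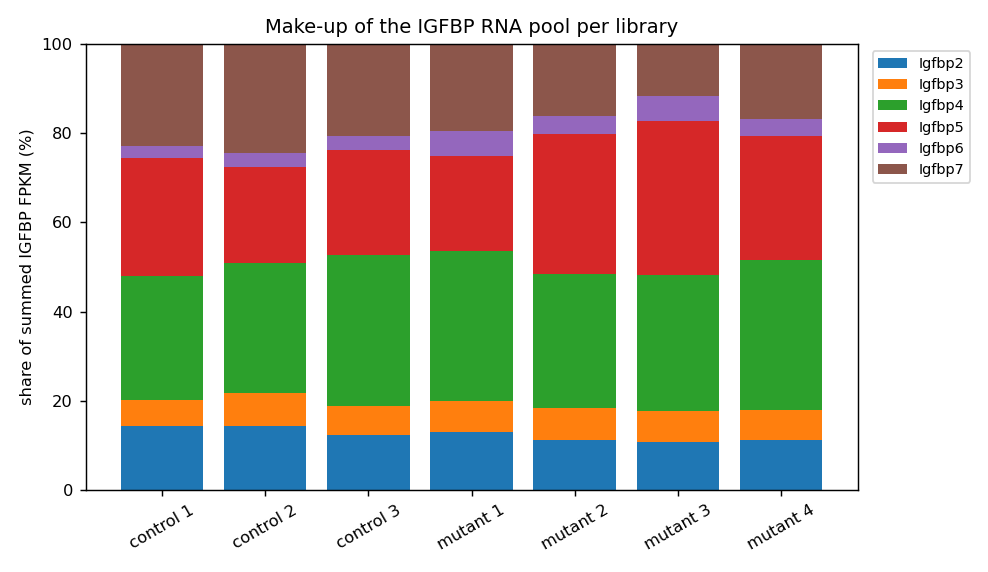
Share of each of the 6 IGFBP genes in their summed FPKM (vertical, percent, stacked from 0 to 100) for the 7 libraries. The Igfbp7 part is 20.6% to 24.5% in the controls and 11.7% to 19.6% in the mutants.

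Other genes of the pathway were taken from a list of 53, of which 48 were in the table and 44 were tested. By limma 0 of the 44 passed, against 1.53% of all genes tested. At an unadjusted p under 0.05 there were 1 higher and 2 lower, beside 13.7% of all genes in either direction. By limma-voom 0 passed (1.62% of all genes), and 0 passed in the authors' deposited table (5.49% of its genes with a p-value). The median log2 difference of the 44 was -0.06, with 16 above 0 and 28 below. Groups did not overlap for 6 of the 44, 1 higher and 5 lower (14.5% of all genes tested). The insulin receptor gene Insr and the IGF2 clearance receptor gene Igf2r were at 5.03 ± 0.84 and 14.8 ± 4.00 FPKM among controls, against 4.59 ± 0.78 and 14.0 ± 3.67 FPKM among mutants (SD, n = 3 and n = 4). Of 4 tested genes for IGFBP proteases and their inhibitors, the one with the smallest p was Htra1, at 1.37 to 1.98 FPKM among controls, against 0.923 to 1.42 FPKM among mutants (log2 difference -0.26, SE 0.11; limma adjusted p = 0.344, and -0.48 by limma-voom). Pappa, the gene of a protease that cleaves IGFBP4, was at 1.69 FPKM among controls, against 2.30 FPKM among mutants on average (0.28, SE 0.18; limma adjusted p = 0.588).

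Of the 10 adaptor and phosphoinositide 3-kinase genes, the regulatory subunit gene Pik3r3 was at 13.3 to 13.5 FPKM among controls, against 13.7 to 18.0 FPKM among mutants, with all mutants above all controls (log2 difference 0.24, SE 0.09; limma adjusted p = 0.242). It passed as higher without mutant replicate 1 (0.31; adjusted p = 0.0359) and with array weights (0.26; adjusted p = 0.0232). The catalytic subunit gene Pik3cb was at 1.90 to 1.96 FPKM among controls, against 1.497 to 1.74 FPKM among mutants (-0.17, SE 0.08; limma adjusted p = 0.385, and -0.26 by limma-voom). In the AKT and TOR branch 0 of 17 tested genes passed, with a median of -0.09, and the most abundant, Akt1, was at 113 FPKM among controls, against 117 FPKM among mutants on average. Of 9 tested negative regulators, Socs1, which damps cytokine and insulin receptor signalling, was at 1.45 to 1.56 FPKM among controls, against 0.492 to 1.17 FPKM among mutants (-0.45, SE 0.13; limma adjusted p = 0.144). Socs1 rested on 67 to 313 reads a library, fewer than any member. Its log2 difference depended on the scale, at -0.80 with a pseudocount of 0.1, -0.87 by limma-voom and -0.81 in the authors' deposited table (adjusted p = 0.186, 0.130 and 0.0660). With array weights it passed as lower (-0.44; adjusted p = 0.0332).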

How the data were processed

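RNA was extracted and libraries were made with a directional kit, per the labels' protocols. Builds mm39 and GRCm39 are named in the submitters' processing notes, as are STAR 2.6.0c, HTSeq 0.6.1p2, DESeq2, Trim Galore 0.5.0 and FastQC 0.11.5, without their settings. The authors deposited FPKM per library and a DESeq2 comparison. Its baseMean is a normalized signal, its log2 fold change has a standard error, and its test statistic is a score, all deposited with a p-value and an adjusted p-value, per the file headers. The deposited p-value columns were copied. Genes at 1 FPKM or more in at least 3 libraries were compared with limma 3.58.1 under R 4.3.3, using log2(FPKM + 1), a scale that understates changes of low genes, with a two-sided moderated test (variance trend on, robust fit) and Benjamini-Hochberg adjustment over 13466 genes. Members, lists and tests were chosen with earlier results of these data known. The text names all members, Irx3, Irx5, Igf2, Igf2r, Insr, the 4 pathway genes with the smallest p, and the 3 genes most correlated with the leading member in each direction; Pappa, Akt1, Igfbp1 and the markers were named after their values were seen. Whole reads were recovered from mean counts and FPKM (within 0.05 of a whole number for 100% of entries). Whether a library holds 1 embryo or several is not stated, and p-values therefore measure only the spread among these 7 libraries, which may be technical. Replicate numbers showed no pairing of the samples, which cannot exclude pairing, and litter was not modelled. The test was checked on simulated counts. Summaries came from Python 3.11.15 (pandas 2.3.3, numpy 2.4.6), and figures from matplotlib 3.10.9. Promoter windows and neighbouring genes came from RefSeq and GENCODE tables on GRCm38.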

Additional observations from a re-analysis of the deposited data

Results flagged for a closer look

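Igfbp2 in the 4 mutants was marked because 1 library lay far from the rest: on the log2(FPKM + 1) scale the gap of mutant replicate 1 to its nearest neighbour was 0.855 of the mutants' whole range, above Dixon's 95% critical value for 4 samples. The library stood at 64.7 FPKM, against 46.1 to 48.4 FPKM in mutant replicates 2 to 4. Among the 27 values examined in this way 1 was marked, and chance marks about 1 in 20.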

How the results depend on the processing

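Precision is limited by the spread among 3 and 4 libraries; the lowest count of a member in a library was 654 reads. The number of members called was 0 under the other settings, 2 with array weights (Igfbp7 and Igfbp2, both lower) and 1 in the authors' deposited table, and ran from 0 to 1 when a library was left out (1 without mutant replicate 1, Igfbp7). Pathway genes called numbered 2 with array weights (Pik3r3 higher, Socs1 lower) and 0 to 1 when a library was left out (Pik3r3 without mutant replicate 1). All genes called numbered 206 as first tested, 109 with a pseudocount of 0.1, 60 with a minimum of 5 FPKM, 1302 with array weights, 886 in the authors' deposited table and 422 with the length trend removed. Leaving out a library gave 11 to 486: 14, 11 and 54 without control replicates 1 to 3, and 486, 42, 124 and 33 without mutant replicates 1 to 4. The minimum of 5 FPKM called 31 genes higher and 29 lower, against 64 and 142 as first tested.

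The length correction and the globin ratio as a covariate were added after seeing the data. Igf1, Igfbp2, Igfbp5, Igfbp6 and Igfbp7 kept their sign in all 19 alternatives, with log2 differences of 0.14 to 0.39, -0.49 to -0.27, 0.06 to 0.26, 0.21 to 0.64 and -0.76 to -0.47. Values near 0 changed sign. With array weights the log2 difference was 0.044 for Igf1r, 0.0051 for Irs1, 0.019 for Irs2, -0.18 for Igfbp3, 0.058 for Irx5, -0.0079 for Igf2, 0.035 for Igf2r and 0.0094 for Insr. Quantile normalization gave 0.019 for Irs1, 0.034 for Irs2 and 0.031 for Irx5, and median-of-ratios size factors gave -0.00073 for Igfbp3. With the length trend removed Irs1 was at 0.0032, Irs2 at 0.0070 and Igfbp3 at -0.0019. The authors' deposited table gave -0.0042 for Igfbp3 and 0.029 for Irx5, and the globin covariate 0.016 for Irx5 and -0.051 for Igf2. Leaving out a library gave -0.15 to 0.067 for Igf1r, -0.11 to 0.051 for Irs1, -0.064 to 0.073 for Irs2, -0.065 to 0.11 for Igfbp3, -0.093 to 0.045 for Igfbp4, -1.24 to -1.02 for Irx3, -0.12 to 0.11 for Irx5, -0.13 to 0.12 for Igf2, -0.22 to 0.13 for Igf2r and -0.18 to 0.00031 for Insr. The cause was not tested.

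Same-numbered control and mutant libraries had deviation correlations of -0.156, 0.0276 and 0.098, against -0.253 to 0.141 for different numbers. These few values show no pairing by number and cannot exclude it. Litter was not modelled. With the replicate number as a block 2 genes were called in all and 0 members; the log2 difference was -1.24 for Irx3 (adjusted p = 0.0974) and -0.025 for Igf2. In that fit mutant replicate 4 is its own level and adds nothing to the comparison. Leaving out a library gave mean Igfbp7 shares of the IGFBP sum of 21.7% to 23.6% in controls and 14.9% to 17.5% in mutants. For Igfbp6 they were 2.95% to 3.18% and 4.45% to 5.09%.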

Other observations

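The FPKM ratio of Igf2 to Igf1 was 8.13, 7.79 and 6.79 across control replicates 1 to 3, against 6.10, 5.80, 5.54 and 6.91 across mutant replicates 1 to 4, so 3 of the 4 mutants lay below every control. The ratio of Igfbp7 to Igfbp5 was 0.860, 1.14 and 0.877 in the controls and 0.917, 0.514, 0.339 and 0.603 in the mutants, where mutant replicate 1 again lay within the control range. Insrr, Igfals, Pappa2 and Trib3 were in the table and did not pass the filter on low values. Igfals, whose product carries IGFs in blood together with IGFBP3 or IGFBP5, had 13 to 53 reads a library.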
